A study of Homo sapiens with 6 samples.

Results

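The genes described here encode the cytosolic translation initiation factors, taken as every gene whose platform symbol begins with EIF1 to EIF6, except the eIF2 kinases (symbols beginning with EIF2AK). Of 18132 genes with a probe set of a single symbol, 47 met that rule, and 45 of these were among the 12221 genes bright enough to be tested. Each gene is represented by its probe set (a group of short oligonucleotides read as 1 value) with the highest mean. The cells were ARPE-19, an established line derived from human retinal pigment epithelium, grown to 90% confluence and given a plasmid that encodes green fluorescent protein (GFP). After 48 h, 3 samples received 10 mU/ml glucose oxidase for 3 h, an enzyme that makes hydrogen peroxide from the glucose of the medium, and 3 samples did not (0 h). The descriptions of the 3 h samples name a different plasmid, one that joins the fluorescent protein to satellite alpha, while protocol and design text give the plain plasmid for all, so the construct and the exposure cannot be told apart. Nothing in the labels says that the replicates were separate cultures, or that the 0 h cells were held for a further 3 h, so p-values measure only the spread between these arrays.

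Translation begins when the small ribosomal subunit, loaded with the initiator tRNA by eIF2 and held open by eIF1, eIF1A and eIF3, is recruited to the cap of an mRNA by eIF4E, the scaffold eIF4G and the helicase eIF4A. The complex scans to the start codon, where eIF5 triggers GTP hydrolysis on eIF2, and eIF5B then joins the large subunit. Stress restrains this machinery at 2 known points: kinases that phosphorylate the alpha subunit of eIF2 and so block its exchange factor eIF2B, and the 4E-binding proteins, which occlude eIF4E when mTORC1 is inactive. These are controls of the proteins, and the arrays measured only the mRNAs.

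The upstream sequences of 6 of these genes are shown because they include the gene with the largest increase (EIF4G1), the one with the largest decrease of a brightest probe set (EIF5B), and genes that share the E-box CACGTG (the cap-binding protein EIF4E, EIF4G1, the helicase stimulator EIF4H, EIF4A3 and EIF5A2), a motif bound by MYC and related factors. Each runs 5′ to 3′ over the 250 bases before the RefSeq start site in GRCh38.p14, and capitals mark the E-box.
EIF4G1 (chr3:184314356-184314605, plus strand): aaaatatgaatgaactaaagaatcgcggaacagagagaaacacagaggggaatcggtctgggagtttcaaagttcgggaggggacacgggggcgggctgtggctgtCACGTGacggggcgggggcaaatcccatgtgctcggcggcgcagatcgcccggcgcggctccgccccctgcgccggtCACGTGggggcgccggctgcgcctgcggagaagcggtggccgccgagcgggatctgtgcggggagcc
EIF4H (chr7:74174106-74174355, plus strand): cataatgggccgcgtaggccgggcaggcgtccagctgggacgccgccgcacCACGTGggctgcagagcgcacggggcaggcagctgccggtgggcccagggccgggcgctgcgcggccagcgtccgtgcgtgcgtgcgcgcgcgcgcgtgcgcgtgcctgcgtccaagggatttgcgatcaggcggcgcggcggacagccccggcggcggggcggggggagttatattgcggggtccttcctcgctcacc
EIF4A3 (chr17:80147129-80147378, minus strand): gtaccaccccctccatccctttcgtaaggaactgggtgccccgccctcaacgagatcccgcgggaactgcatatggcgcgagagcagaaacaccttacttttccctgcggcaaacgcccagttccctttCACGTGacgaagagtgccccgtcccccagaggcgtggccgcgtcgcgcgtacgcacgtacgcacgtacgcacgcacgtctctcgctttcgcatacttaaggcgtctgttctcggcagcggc
EIF4E (chr4:98929134-98929383, minus strand): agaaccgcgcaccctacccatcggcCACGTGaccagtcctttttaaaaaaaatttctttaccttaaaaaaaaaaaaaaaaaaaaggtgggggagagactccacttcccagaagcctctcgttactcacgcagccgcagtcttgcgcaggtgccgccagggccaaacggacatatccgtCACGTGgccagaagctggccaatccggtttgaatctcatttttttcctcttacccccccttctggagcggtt
EIF5A2 (chr3:170908638-170908887, minus strand): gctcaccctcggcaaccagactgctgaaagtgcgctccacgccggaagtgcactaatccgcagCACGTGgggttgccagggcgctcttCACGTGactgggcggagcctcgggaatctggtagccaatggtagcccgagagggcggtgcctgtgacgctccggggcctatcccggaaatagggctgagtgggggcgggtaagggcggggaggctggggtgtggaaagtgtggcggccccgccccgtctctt
EIF5B (chr2:99337139-99337388, plus strand): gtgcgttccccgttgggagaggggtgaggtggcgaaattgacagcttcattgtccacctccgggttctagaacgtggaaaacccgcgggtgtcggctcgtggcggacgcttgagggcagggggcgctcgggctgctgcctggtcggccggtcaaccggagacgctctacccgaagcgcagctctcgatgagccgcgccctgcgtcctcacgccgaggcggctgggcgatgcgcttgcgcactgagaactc
EIF4G1, EIF4E and EIF5A2 each held the motif at 2 places, EIF4H and EIF4A3 at 1, and EIF5B at none.

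Of the 40 initiation factor genes with an entry in the RefSeq promoter table, 10 held an E-box in these 250 bases, or 25.0%. The motif reads the same on both strands and was found in 6.49% of 27305 promoters of the same length and in 8.83% of the 10019 that belong to tested genes. The 10 genes did not move as a block: 4 rose (EIF4G1, EIF4H, EIF4A3 and EIF3F), 2 fell (EIF2B3 and EIF5A2) and 4 did not pass (EIF4E, EIF4B, EIF3K and EIF1B). The GC box GGGCGG, searched on both strands, was in 70.0% of the 40, against 42.3% of all promoters and 66.6% of those of tested genes. The ETS core CCGGAAG was in 17.5%, against 8.82% and 15.3%. Other motifs were searched too. The YY1 motif was in 5.0% of the 40, against 1.42% of all promoters and 1.71% of those of tested genes. The cAMP response element was in 0 of the 40, against 1.77% and 2.82%. The NRF1 motif was also in 0 of the 40, against 1.13% and 1.93%. The E-box was thus singled out from several motifs, and the differences between these shares were not tested. Base composition did not separate the groups either, since upstream GC content ran from 48.4% to 76.4% among 8 genes that rose and from 51.6% to 74.4% among 10 that fell. These matches describe letters and not binding.

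At 3 h, 10 of the 45 tested genes rose, 11 fell and 24 did not pass an adjusted p of 0.05 in limma. That is 46.7% called, beside 51.3% of all tested genes. By direction it is 22.2% against a background of 20.6% upward, and 24.4% against 30.8% downward. The shares are near those of the background, so the counts by themselves say nothing particular about the family. The median log2 change was -0.01 over the 45 genes and -0.04 over all tested genes. Only 2 of the 45, EIF4G1 and EIF5B, changed at least 1.5-fold and passed, against 9.03% of all tested genes. The groups did not overlap for 13 genes higher and 14 lower at 3 h, where 24.8% and 35.7% of all tested genes (60.5% together) had such separation. The number that fell was 7 without replicate 1 at 0 h and also 7 without replicate 1 at 3 h.

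**Figure D1:**
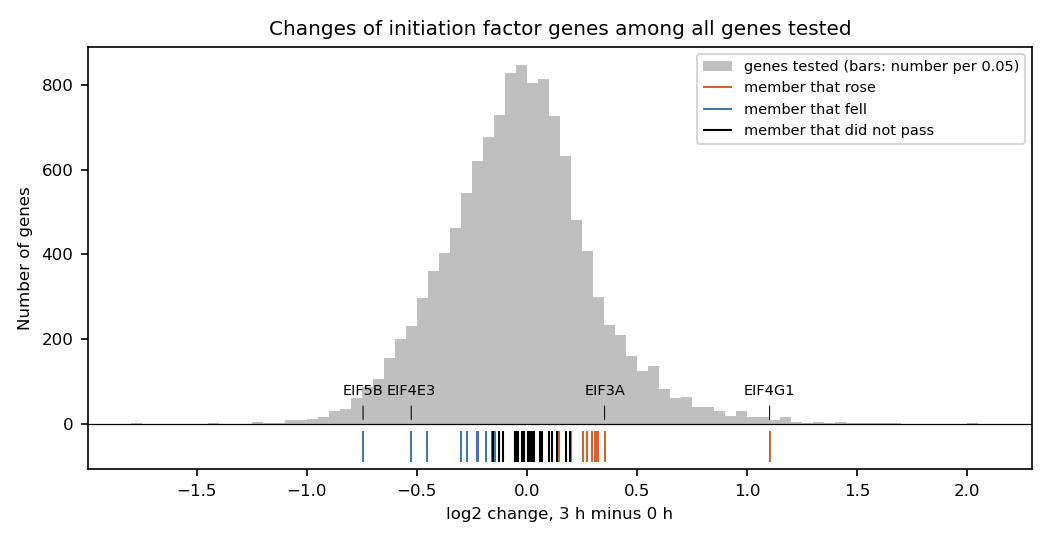
Histogram of the log2 change, 3 h minus 0 h, of the 12221 tested genes (grey bars, number of genes per interval of 0.05), with a tick under it for each initiation factor gene except EIF1AY, coloured by its call. Most ticks lie within the main body of the histogram, and EIF4G1 at 1.10 stands alone on the right.

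Differences between the arrays themselves run along with every change given here. All 24 probe sets for the poly-A spike transcripts, which are added during sample preparation, were lower on every 3 h array than on any 0 h array (median log2 change -0.60). So were 17 of 18 for the hybridization spikes (median -0.31). For actin, the 5′ probe set minus the 3′ probe set (log2) gave -2.11 to -1.99 at 0 h and -1.24 to -1.13 at 3 h, so preparation and exposure cannot be told apart. Across tested genes pairs of arrays correlated at 0.997 to 0.998 among the 0 h arrays, at 0.996 to 0.997 among the 3 h arrays and at 0.979 to 0.983 across groups. Of 13 markers of retinal pigment epithelium 9 were above the floor for testing (log2 4.64), while RPE65, RLBP1, LRAT and TYRP1 were under it. That floor is a percentile of brightness and not a limit of detection. Of the 9, 5 rose and 1 fell, where 20.6% of all tested genes rose and 30.8% fell. The summed level of the 13 markers was 13.1 on every 0 h array and 13.4 to 13.5 on the 3 h arrays (log2 scale). That sum was carried by the general epithelial keratins KRT18 (12.2 at 0 h, 12.5 to 12.6 at 3 h) and KRT8, so it says little of markers more specific to this epithelium. Among the other markers above the floor, MITF, TJP1 and OTX2 rose by 0.33, 0.26 and 0.19 and SERPINF1 fell by 0.40. BEST1, PMEL and TTR did not pass. The summed levels were 6.03 to 6.10 and 6.03 to 6.24 for 4 fibroblast markers, 6.77 to 6.90 and 6.80 to 6.94 for 4 of blood and endothelium, and 7.80 to 7.83 and 7.59 to 7.68 for 4 of photoreceptors and neurons. Of the markers in these 3 lists, 1 of 4, 3 of 4 and 4 of 4 were above the floor, in the same order. Decorin and CD45 (PTPRC) were among those under it, and CD3E, PECAM1, VWF and CRX among those above it. Of the 4 photoreceptor and neuron markers 2 fell, PDE6B (-0.36) and SYT1 (-0.22), where 30.8% of all tested genes fell. No marker of the other lists just named was called. The part of other cell types in the results was not tested. In bulk RNA, fewer cells of a type and less RNA per cell cannot be told apart.

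Among the genes of the eIF4 series (cap-binding proteins, scaffolds, helicases, their cofactors and the inhibitors of eIF4E), the scaffold gene EIF4G1 had by far the largest increase. Of the 13 tested genes of this group 3 rose, 2 fell and 8 did not pass (23.1% upward and 15.4% downward, against 20.6% and 30.8% of all tested genes). EIF4G1 stood at 9.42, 9.36 and 9.42 on the 0 h arrays and at 10.53, 10.47 and 10.50 on the 3 h arrays (log2 values, replicates 1 to 3). The groups were far apart: the log2 change was 1.10 (SE 0.05, n = 3, adjusted p = 6.74e-06), or 2.15-fold, and its rank from the highest increase was 58 of 12221. Its other 2 probe sets showed it too, one at 1.10 and a dimmer one at 1.88. EIF4H and EIF4A3 also rose, but less. EIF4H, which stimulates the eIF4A helicase, went from 12.46, 12.51 and 12.51 to 12.78, 12.78 and 12.81, a change of 0.30 (SE 0.05, adjusted p = 0.00150). A second, much dimmer probe set of EIF4H had 1.12. EIF4A3, a relative of eIF4A that serves in the exon junction complex, went from 10.29, 10.27 and 10.26 to 10.66, 10.49 and 10.44, a change of 0.26 (adjusted p = 0.0121), with the 3 h arrays more spread than those at 0 h.

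The cap-binding protein gene EIF4E stood at 10.73, 10.74 and 10.72 at 0 h and at 10.52, 10.54 and 10.66 at 3 h. All of the 3 h arrays were below those at 0 h, but the change of -0.15 (SE 0.06) just missed the threshold with an adjusted p of 0.0511, and it passed without replicate 3 at 3 h (-0.20). Its other 3 probe sets above the floor were all called lower, at -0.27, -0.36 and -0.76, and the mean over all 7 of its probe sets was called at -0.32 (adjusted p = 0.000421). The related gene EIF4E3 fell, from 5.47, 5.63 and 5.68 to 4.77, 5.09 and 5.34 (-0.53, SE 0.13, adjusted p = 0.00980). It was the dimmest of the tested genes shown: its replicate 1 at 3 h was just above the floor, and 3 of its 5 probe sets were under it. EIF4E2, which binds caps without engaging eIF4G1, stood at 0.02 (adjusted p = 0.781).

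By their brightest probe sets the helicase genes EIF4A1 and EIF4A2 each changed little between 0 h and 3 h. EIF4A1 stood at 7.73, 7.67 and 7.57 at 0 h and at 7.65, 7.71 and 7.62 at 3 h (0.00, adjusted p = 0.975), with overlapping groups. Its 2 dimmer probe sets above the floor both rose by 0.44, and the mean over its 4 probe sets was called at 0.19. In all, 18 probe sets of the platform pair an initiation factor symbol with another gene, such as a small nucleolar RNA or a read-through transcript, and were left out by the rule, some of EIF4A1 and EIF4A2 among them. EIF4A2 fell slightly, from 11.68, 11.76 and 11.74 to 11.56, 11.60 and 11.59 (-0.14, SE 0.05, adjusted p = 0.0476). Leaving out any single array ended that call (-0.17 to -0.13), and its 2 other probe sets above the floor were higher at 3 h, at 0.13 and 0.21, neither called. EIF4B, which also aids the helicase, stood at -0.04, while 3 of its 4 other probe sets rose by 0.28 to 0.54. Averaged over all of them it was called upward at 0.26 (adjusted p = 0.00727). EIF4G2, a scaffold for cap-independent initiation, stood at -0.13 (adjusted p = 0.0618). All 4 of its probe sets were lower at 3 h and 1 was called, at -0.26. The mean over the 4 was called at -0.14 (adjusted p = 0.0343).

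The inhibitors of eIF4E did not pass by their brightest probe sets. EIF4EBP1 stood at 10.24, 10.20 and 10.18 at 0 h and at 10.28, 10.32 and 10.24 at 3 h (0.07, adjusted p = 0.311). All 3 probe sets of EIF4EBP1 were higher at 3 h and 1 was called, at 0.19. The mean over the 3 was called at 0.13 (adjusted p = 0.0409). EIF4EBP2 stood at 8.15, 8.22 and 8.13 and then at 8.28, 8.27 and 8.25 (0.10, adjusted p = 0.141). The groups of EIF4EBP2 did not overlap, and its 4 dimmer probe sets all rose, by 0.24, 0.38, 0.69 and 1.15. The mean over its 5 probe sets was called at 0.51 (adjusted p = 5.13e-05). EIF4ENIF1, which carries eIF4E into the nucleus, stood at 0.19 (adjusted p = 0.0970), and was called at 0.28 without replicate 1 at 0 h. Its second probe set stood at -0.12 and was not called, and the mean over both was 0.04 (adjusted p = 0.582). EIF4E1B, a germline form of eIF4E, was under the floor on all 6 arrays (2.98 to 3.48).

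**Figure D2:**
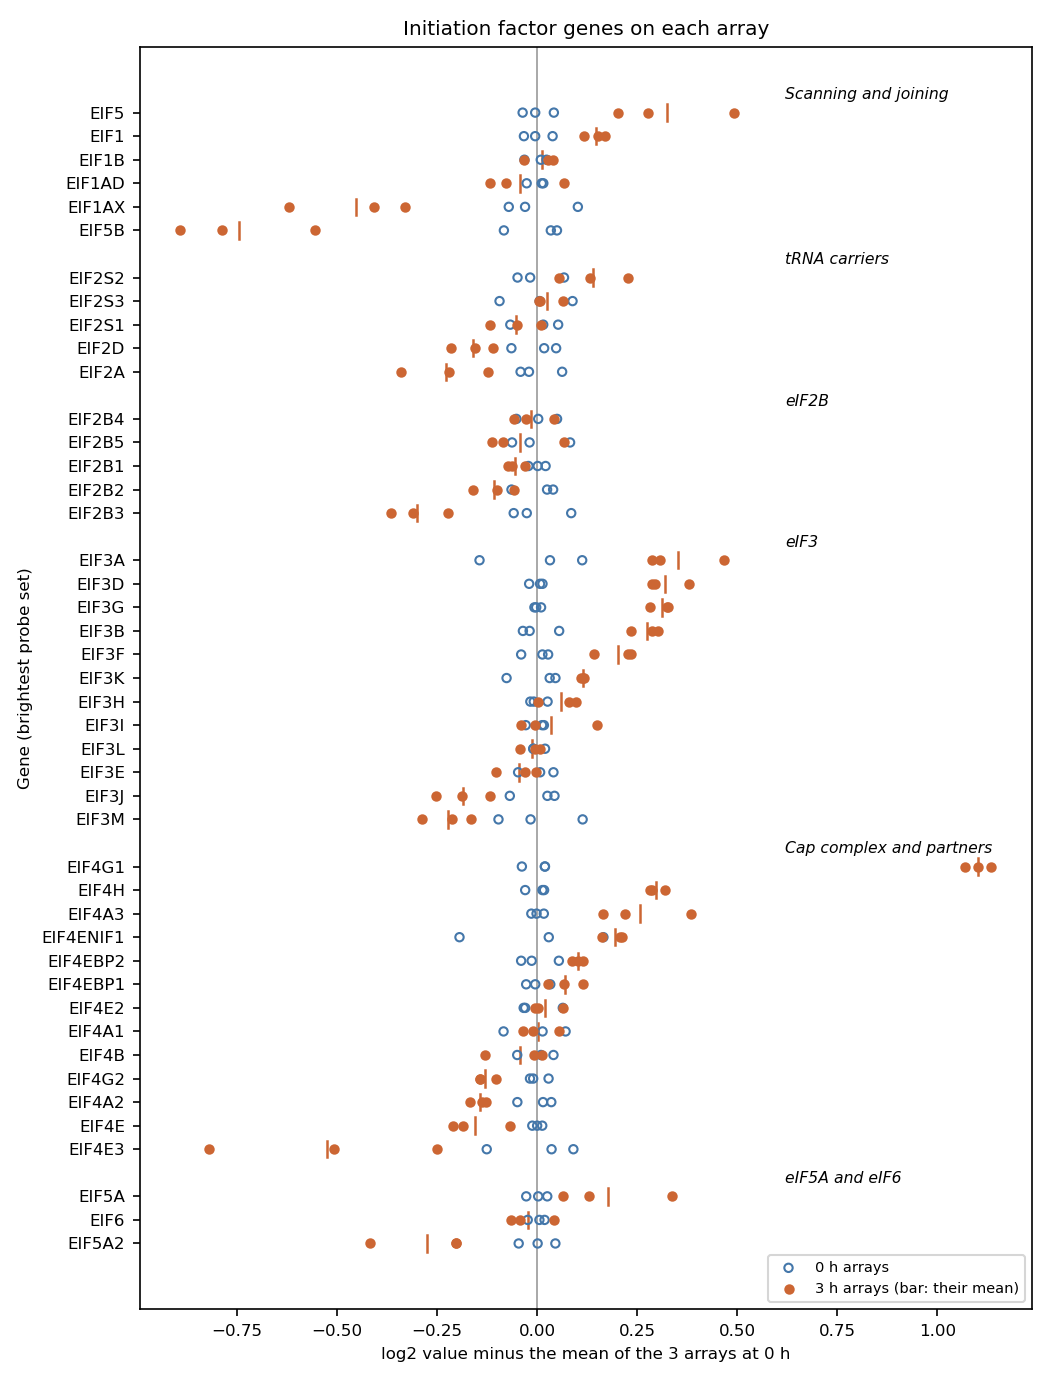
Log2 value of each tested initiation factor gene except EIF1AY on each array, minus the mean of the gene's 0 h arrays, grouped by function; open circles are 0 h arrays, filled circles 3 h arrays and bars their means. The 3 h arrays of EIF4G1 lie beyond 1 on the right, those of EIF5B lie on the left, and most eIF3 genes lie within 0.4 of 0 in either direction.

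The eIF3 complex, the largest initiation factor, was measured by 12 genes, of which 5 rose, 2 fell and 5 did not pass (41.7% upward and 16.7% downward, against backgrounds of 20.6% and 30.8%). Their median log2 change was 0.09. The difference from other genes was not tested. Among the subunits b, d, g and i and the loosely bound subunit j, 3 of 5 rose. EIF3D, the subunit that can itself bind the cap of some mRNAs, went from 11.10, 11.13 and 11.12 to 11.50, 11.41 and 11.40 (0.32, SE 0.05, adjusted p = 0.00133), and its second probe set rose by 0.29. EIF3B, a core scaffold, went from 11.21, 11.12 and 11.14 to 11.39, 11.44 and 11.46 (0.27, SE 0.05, adjusted p = 0.00324). It is the best covered gene of the family: all 8 of its probe sets were higher at 3 h, from 0.16 to 0.53, and 6 were called. EIF3G went from 9.75, 9.73 and 9.73 to 10.06, 10.02 and 10.06 (0.31, SE 0.05, adjusted p = 0.00112). A second probe set of EIF3G of nearly equal brightness showed -0.00, and the mean over its 4 probe sets was not called (0.17, adjusted p = 0.0721). EIF3I stood at 0.03 (adjusted p = 0.680). EIF3J, by contrast, fell from 8.72, 8.83 and 8.81 to 8.60, 8.67 and 8.53 (-0.19, SE 0.06, adjusted p = 0.0305), with -0.43 in its second probe set. That call was lost in 4 of 6 runs with 1 array left out, namely 0 h replicates 2 and 3 and 3 h replicates 1 and 3 (-0.19 to -0.15).

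Of the 7 measured subunits of the eIF3 core, 2 rose, 1 fell and 4 did not pass (28.6% upward, and 1 of 7 downward, against 20.6% and 30.8% of all tested genes). EIF3C, another subunit of that core, has probe sets that also list EIF3CL and was left out by the rule. EIF3A, the largest subunit, is ambiguous. Its brightest probe set went from 8.49, 8.57 and 8.32 to 8.77, 8.75 and 8.93 (0.35, SE 0.08, adjusted p = 0.00677), and the other, almost as bright, from 8.76, 8.75 and 8.96 to 8.31, 8.30 and 8.31 (-0.51). Both were called, in opposite directions, and their mean was not (-0.08, adjusted p = 0.189). EIF3F rose from 11.92, 11.91 and 11.85 to 12.13, 12.12 and 12.03 (0.20, SE 0.06, adjusted p = 0.0148), with 0.23 in its second bright probe set. It was not called without replicate 3 at 0 h (0.18). Both bright probe sets carry the suffix for shared transcripts, and without such probe sets the gene was read from one near the floor and was not called (0.07). EIF3M fell from 10.64, 10.56 and 10.77 to 10.49, 10.37 and 10.44 (-0.22, SE 0.07, adjusted p = 0.0254). All 4 of its probe sets were called lower, to -0.50, although the brightest lost its call in 3 runs, those that left out 0 h replicates 1 and 3 and 3 h replicate 2 (-0.23 to -0.17). EIF3E, EIF3H, EIF3K and EIF3L stood at -0.05, 0.06, 0.11 and -0.01, with adjusted p values of 0.513, 0.377, 0.120 and 0.842. Single dimmer probe sets of EIF3K and EIF3L were called at -0.32 and 0.55.

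Of the genes for scanning, start codon selection and subunit joining, 2 rose, 3 fell and 2 did not pass (28.6% upward and 42.9% downward of 7 genes, against 20.6% and 30.8% of all tested genes). EIF5B, the GTPase that joins the large subunit, had the largest decrease of the family. Its brightest probe set fell from 8.37, 8.25 and 8.38 to 7.78, 7.44 and 7.55 (-0.74, SE 0.09, adjusted p = 0.000268), or 1.68-fold lower, with no overlap between the groups. A second probe set was equally bright to 2 decimals (mean 7.96 for both) and did not fall: it stood at 7.88 ± 0.10 (SD, n = 3) at 0 h and at 8.03 ± 0.09 at 3 h (0.15, not called). The third stood at -0.02 and the dimmest fell by 0.50. Under quantile normalization the second became the brightest, and the value for the gene turned to 0.15. EIF1AX, which encodes eIF1A, fell from 8.68, 8.72 and 8.86 to 8.13, 8.35 and 8.42 (-0.45, SE 0.09, adjusted p = 0.00242), and its second probe set fell by 0.28. The third gene that fell, EIF1AY, is counted and its values are not given here.

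EIF5, the activator of GTP hydrolysis by eIF2, rose by its brightest probe set from 11.01, 11.08 and 11.04 to 11.32, 11.25 and 11.54 (0.32, SE 0.08, adjusted p = 0.00866). None of its 6 other probe sets was called (-0.16 to 0.09), and the mean over all 7 stood at 0.03 (adjusted p = 0.728). EIF1, the guardian of start codon choice, rose from 12.78, 12.82 and 12.75 to 12.93, 12.95 and 12.90 (0.15, SE 0.05, adjusted p = 0.0440). The increase was small and its call ended in 5 of 6 runs that left out 1 array, all but that without replicate 3 at 3 h (0.13 to 0.17 over the 6). It also ended over the mean of its 4 probe sets (0.09). EIF1B stood at 0.01 (adjusted p = 0.879). EIF1AD, an eIF1A-like protein of small subunit maturation, stood at -0.04 (adjusted p = 0.591), with -0.53 and a call in its second probe set.

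None of the 3 subunits of eIF2, which carries the initiator tRNA, passed the threshold. EIF2S1, the alpha subunit that stress kinases phosphorylate, stood at 10.34, 10.30 and 10.22 at 0 h and at 10.17, 10.24 and 10.30 at 3 h (-0.05, SE 0.06, 95% interval -0.19 to 0.08, adjusted p = 0.485). The groups overlapped. Of its 4 dimmer probe sets 1 was called, at -0.36. EIF2S2 and EIF2S3, the beta and gamma subunits, stood at 0.14 and 0.02 (adjusted p = 0.104 and 0.762). Single dimmer probe sets of these genes were called at -0.24 and 0.55. EIF2A and EIF2D, which can deliver tRNA without eIF2, both fell. Of these 5 tRNA carrier genes 0% rose and 40% fell, against 20.6% and 30.8% of all tested genes. EIF2A went from 10.31, 10.21 and 10.23 to 9.91, 10.03 and 10.12 (-0.23, SE 0.07, adjusted p = 0.0224) with -0.41 in its second probe set. The call was lost when replicate 1 of either group was left out (-0.20 for 0 h and -0.17 for 3 h). EIF2D went from 9.24, 9.27 and 9.16 to 9.07, 9.11 and 9.01 (-0.16, SE 0.06, adjusted p = 0.0462). The call was lost in 4 of 6 runs, those that left out 0 h replicates 1 and 2 and 3 h replicates 1 and 3 (-0.16 to -0.13).

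In eIF2B, the exchange factor that recharges eIF2 with GTP, all 5 subunit genes had negative changes by their brightest probe sets and 1 was called (20.0% downward, against 30.8% of all tested genes). The shared sign rested on that choice: second probe sets of EIF2B4 and EIF2B2 stood at 0.28, which was called, and 0.07, and the mean over both probe sets of EIF2B4 was called at 0.13 (adjusted p = 0.0375). EIF2B3 fell from 8.80, 8.66 and 8.69 to 8.49, 8.35 and 8.41 (-0.30, SE 0.06, adjusted p = 0.00476), by its sole probe set. EIF2B5, the catalytic subunit, stood at 8.58, 8.68 and 8.54 and then at 8.67, 8.52 and 8.49 (-0.04, adjusted p = 0.616), with overlapping groups. EIF2B1, EIF2B2 and EIF2B4 stood at -0.06, -0.11 and -0.01 (adjusted p = 0.388, 0.152 and 0.847). The probe sets of EIF2B1 disagreed most in the family: besides the brightest, one rose by 0.47 and one fell by 0.88, a spread of 1.34.

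Of the remaining factors, EIF5A2, the second gene for the hypusine-bearing factor eIF5A, fell from 7.76, 7.72 and 7.67 to 7.51, 7.30 and 7.51 (-0.27, SE 0.07, adjusted p = 0.0121). All 4 of its probe sets were lower at 3 h and 3 were called. EIF5A stood at 11.70, 11.67 and 11.73 at 0 h and at 12.04, 11.83 and 11.76 at 3 h (0.18, SE 0.08, adjusted p = 0.0811). The groups of EIF5A did not overlap, and replicate 1 at 3 h was highest. The gene was called without replicate 3 at 3 h (0.23) and under quantile normalization (0.21). Its 4 other probe sets above the floor ran from -0.33, which was called, to 0.12. EIF6, which keeps the ribosomal subunits apart, stood at 10.98, 10.95 and 10.99 and then at 11.02, 10.93 and 10.91 (-0.02, adjusted p = 0.753), and the interval of its change ran from -0.15 to 0.10. EIF5AL1 was under the floor on all 6 arrays (2.14 to 2.48).

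The probe sets of a gene were often at odds. Without EIF1AY, 39 genes had at least 2 probe sets above the floor, and in 18 of them (46.2%) the changes had both signs, beside 37.4% of 7120 genes in the series. Calls in both directions, adjusted over all probe sets, were found in 2 of the 39, EIF2B1 and EIF3A, or 5.13% against 6.05%. Such disagreement was common among all genes of the platform. Counted singly, 34 of 134 probe sets of these genes above the floor rose and 29 fell. Of all 29576 probe sets above the floor 51.4% were called, 25.6% upward and 25.8% downward. Of 9 genes called upward with several probe sets, 6 had all of them above 0 (EIF4G1, EIF4H, EIF3B, EIF3D, EIF3F and EIF1) and 3 had all called (EIF4G1, EIF4H and EIF3D). That is 66.7% and 33.3%, beside 81.0% and 50.5% of 1698 such genes in the series. Of 8 called downward, 6 had all below 0, and 5 had all called (EIF1AX, EIF2A, EIF3J, EIF3M and EIF4E3). That is 75.0% and 62.5%, beside 67.4% and 36.2% of 2279 such genes. Of 22 whose brightest probe set did not pass, 15 had another that was called (68.2%, beside 54.9% of 3143 such genes in the series). When each gene was read as the mean of all its probe sets, 44 of the genes were tested, of which 13 rose and 11 fell. These included 6 of the 10 upward and 8 of the 11 downward calls of the brightest probe sets, and EIF4E3 came under the floor and was not tested.

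**Figure D3:**
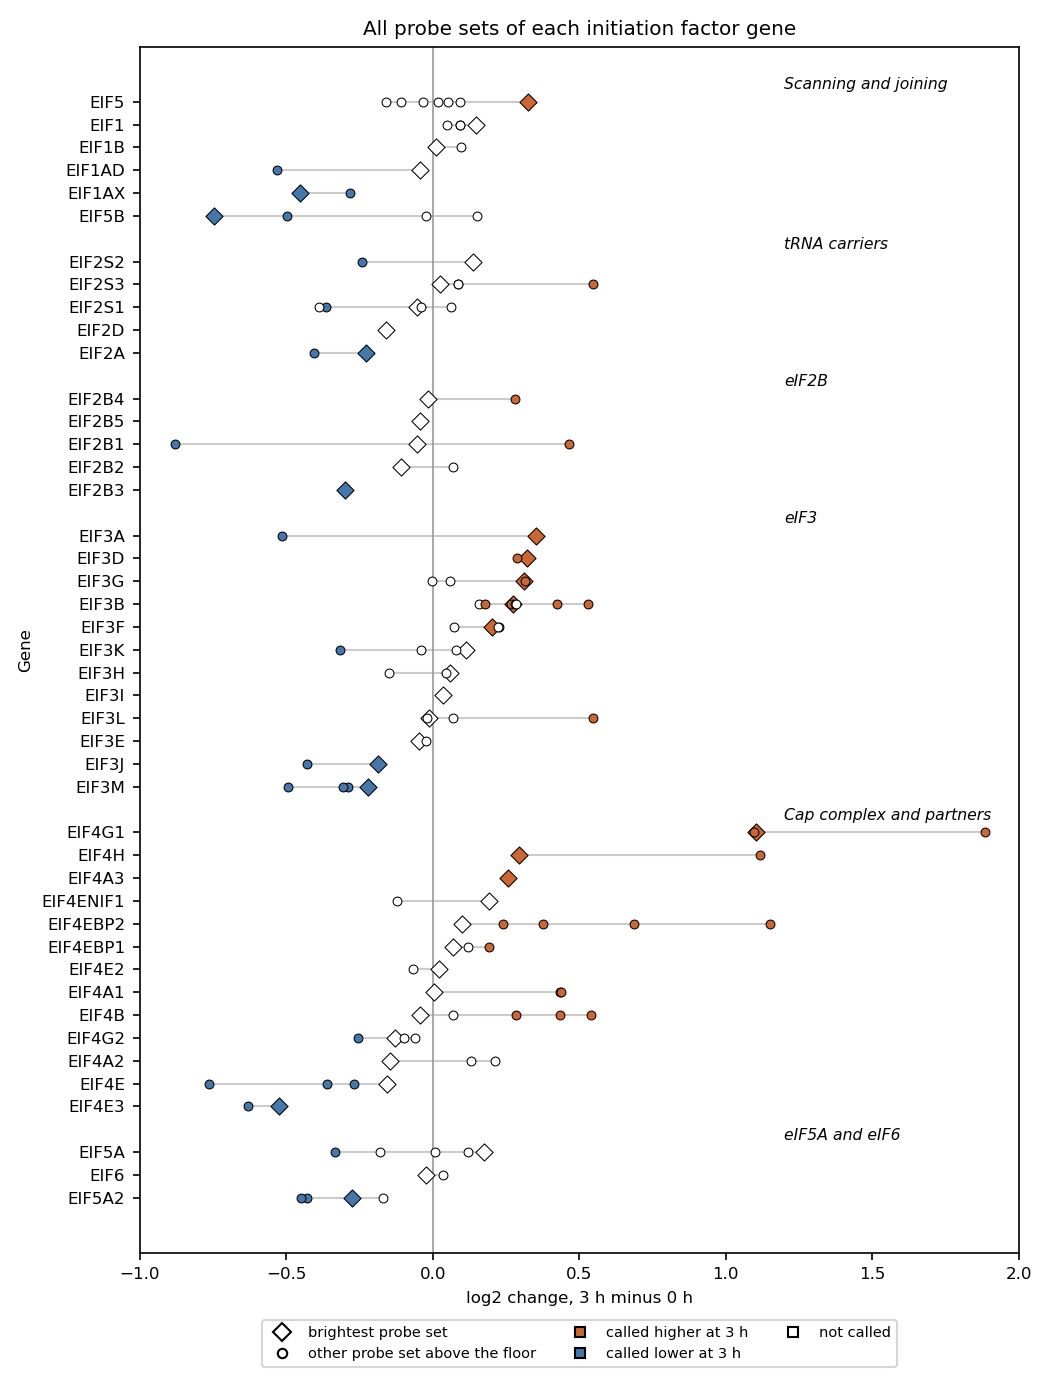
Log2 change, 3 h minus 0 h, of every probe set above the floor for each gene; diamonds are the brightest and circles the others, filled where the probe set passed an adjusted p of 0.05 over all probe sets (orange higher, blue lower). EIF1, EIF2D and EIF4A2 pass over genes and not over all probe sets, so their diamonds are open; EIF2B1 and EIF3A have calls on both sides of 0.

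Other genes that act on initiation, elongation and release formed a list of 55 chosen from their known roles, of which 52 were tested. In it 14 rose, 13 fell and 25 did not pass (26.9% upward and 25.0% downward, against 20.6% and 30.8%), with a median log2 change of -0.02. The largest increase was that of LARP1, which binds the cap and the terminal oligopyrimidine tract of ribosomal protein mRNAs. LARP1 went from 10.15, 10.09 and 10.17 to 11.04, 10.95 and 11.04 (0.88, SE 0.06, adjusted p = 2.21e-05), and its 2 other probe sets rose by 1.14 and 1.15. CYFIP1, a 4E-binding protein of the FMRP complex, rose by 0.54 (adjusted p = 0.000139), with 0.27 and -0.40 in its other probe sets, both called. GIGYF2, a partner of EIF4E2, fell by 0.43 (adjusted p = 0.000686), while of its 6 dimmer probe sets 3 were called higher (0.67 to 0.80) and 1 lower (-0.43). DHX29, a helicase of the scanning complex, fell by 0.41 and GSPT2, a release factor, by 0.38 (adjusted p = 0.000873 and 0.00111). Among the 10 tested genes of elongation and release, GSPT2 was the one that fell and 2 rose, EEF2 and EEF1G, which are named after their values were seen. That is 20% upward and 10% downward, against 20.6% and 30.8% of all tested genes. EEF2, the translocase of the elongating ribosome, rose by 0.23 (adjusted p = 0.00448), and all 8 of its probe sets were called higher, up to 1.29. EEF1G rose by 0.21 (adjusted p = 0.0127).

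The kinases of eIF2 differed from one another. EIF2AK3, which encodes PERK, the kinase of the endoplasmic reticulum, fell from 7.62, 7.69 and 7.58 to 6.83, 6.92 and 6.97 (-0.72, SE 0.06, adjusted p = 6.84e-05), and its 2 other probe sets fell by 0.94 and 0.55. EIF2AK1, the heme-regulated kinase, and EIF2AK2, the double-stranded RNA kinase PKR, both rose by 0.29 (adjusted p = 0.00217 and 0.00409). Of the 7 dimmer probe sets of EIF2AK1, 4 were called higher and 2 lower. A second probe set of EIF2AK2, almost as bright as the first, stood at 0.17 and was not called. EIF2AK4, the amino acid sensor GCN2, stood at -0.02 (adjusted p = 0.752), while its activator GCN1 rose by 0.50 (adjusted p = 0.000126) and IMPACT, which competes for GCN1, fell by 0.53 (adjusted p = 0.000472). PPP1R15A, the inducible phosphatase subunit that reverses eIF2 phosphorylation, rose from 8.22, 8.18 and 8.16 to 8.59, 8.50 and 8.56 (0.36, adjusted p = 0.000727). The mRNAs of the downstream factors ATF4 and DDIT3 did not pass, at -0.03 and -0.09 (adjusted p = 0.678 and 0.192). In all, 4 of the 11 genes listed with the kinases rose and 2 fell, so 54.5% were called, near the 51.3% of all tested genes.

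Among the inputs from mTORC1 and MAP kinases, 3 of 10 rose and 2 fell, so 50% were called, near the 51.3% of all tested genes. RPTOR, the mTORC1 subunit that recruits the 4E-binding proteins, rose from 5.93, 5.86 and 6.02 to 6.60, 6.89 and 6.72 (0.80, SE 0.08, adjusted p = 0.000148), with 0.16 and no call in its second probe set. TSC2, a brake on mTORC1, rose by 0.68 (adjusted p = 0.000163). TSC1, which rose by 0.44, and RPS6KB1 and RHEB, which fell by 0.31 and 0.21 (with a second RHEB probe set called at 0.33), were named after their values were seen, as were the genes that follow. The poly(A)-binding protein genes PABPC4 and PABPC1, partners of eIF4G1, rose by 0.33 and 0.30. DOHH, which completes hypusine on eIF5A, rose by 0.45, and DHPS, which starts it, stood at 0.07 (adjusted p = 0.298). Both mitochondrial initiation factors fell, MTIF3 by 0.41 and MTIF2 by 0.29, where 30.8% of all tested genes fell.

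**Figure D4:**
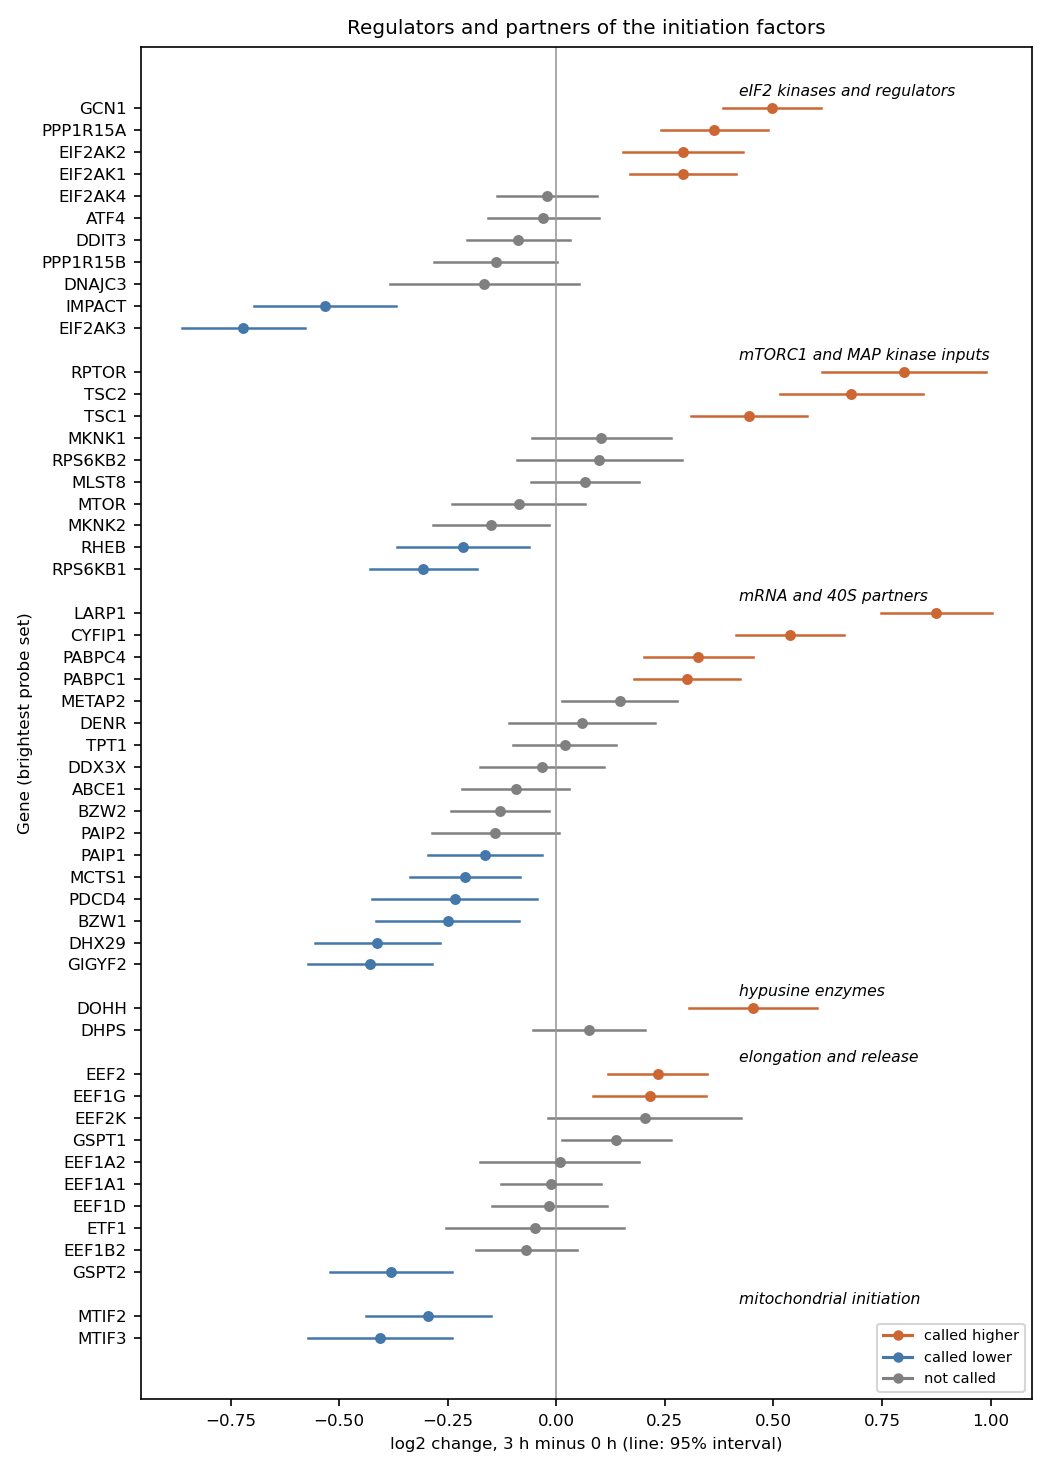
Log2 change, 3 h minus 0 h, of the 52 tested regulators and partners by their brightest probe sets, with 95% intervals from limma, grouped by role and coloured by call. LARP1 at 0.88 and RPTOR at 0.80 lie farthest to the right and EIF2AK3 at -0.72 farthest to the left.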

How the data were processed

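The 6 arrays gave a table of log2 values for 49372 probe sets, normalized by the authors before it was deposited. The scale was read from the values (1.54 to 14.3, medians 5.30 to 5.34). MAS5 and RMA, with no version, are the tools listed per the submitters' processing notes, and no other setting was found in the labels. Similar distributions on all arrays hide any change in total RNA. Probe sets with 1 platform symbol (44988) were named, and 79 controls were left out. Genes with a mean under the 40th percentile of the other probe sets (log2 4.64) were not tested. The 3 h and 0 h arrays were compared in limma (version 3.58.1, R 4.3.3) by lmFit and eBayes, and p-values were adjusted over all 12221 genes by the method of Benjamini and Hochberg. The fit was first tested on simulated data with independent noise and a small share of changed genes. That setting differs from these arrays, where 51.3% of tested genes were called, so it does not vouch for the calls given here. "Rose" and "fell" stand for calls at 0.05, and changes are 3 h minus 0 h. The members, gene lists, motifs and alternatives were chosen with earlier results of these data known. Values per array were set to be given for up to 10 calls in each direction without overlap between groups and for 11 fixed genes, with EIF4EBP2 added after its values were seen. The alternatives covered normalization, floor, probe set choice, moderation, weights, block, threshold and single arrays. All 47 genes matched the RefSeq gene table by Entrez identifier, and 0 symbols changed. Promoter sequences are from RefSeq (GRCh38.p14).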

Additional observations from a re-analysis of the deposited data

How the results depend on the processing

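Calls among the initiation factor genes numbered 8 to 11 upward and 7 to 9 downward when 1 array was left out; in the regulator list they numbered 14 to 15 and 9 to 12. At a threshold of 0.01 the initiation factor genes kept 7 upward and 5 downward calls, and the downward count in the regulator list was 8. Arrays of the same replicate number had correlations of deviations of -0.04, -0.02 and -0.19, and pairs of unlike number ran from -0.14 to 0.17. With 3 arrays per group these values cannot show whether the replicates were paired. With the replicate number as a block 9 of the initiation factor genes rose and 8 fell. The family's median change was -0.051 with median centring, 0.0027 with no floor, 0.025 with probe sets of shared or cross-hybridizing suffix removed, and -0.018 to 0.0021 with 1 array left out. The direction of single genes turned mainly with the choice of probe set. Over the mean of all probe sets it turned for EIF2B4 (0.13), EIF2S2 (-0.10), EIF3A (-0.080), EIF3H (-0.0091), EIF3K (-0.041), EIF3L (0.15), EIF4B (0.26), EIF5A (-0.017) and EIF6 (0.0057). Over the mean of those above the floor, an alternative chosen after seeing the data, it turned for EIF2B4 (0.13), EIF2S2 (-0.051), EIF3A (-0.080), EIF3H (-0.015), EIF3K (-0.041), EIF3L (0.15), EIF4A2 (0.066), EIF4B (0.26), EIF4E2 (-0.024), EIF5A (-0.042) and EIF6 (0.0057). With probe sets of shared or cross-hybridizing suffix removed it turned for EIF2B1 (0.47), EIF2B2 (0.070), EIF2S2 (-0.24), EIF4A2 (0.13) and EIF6 (0.034). Quantile normalization turned EIF4A1 (-0.0096) and EIF5B (0.15), array weights EIF4A1 (-0.0062), and median centring EIF1B (-0.027), EIF2S3 (-0.012), EIF3I (-0.0033), EIF4A1 (-0.035) and EIF4E2 (-0.017). With 1 array left out, values crossed 0 for EIF1B (-0.0053 to 0.033), EIF2B4 (-0.042 to 0.010), EIF2S3 (-0.022 to 0.069), EIF3I (-0.023 to 0.071), EIF3L (-0.024 to 0.0013), EIF4A1 (-0.039 to 0.038), EIF4B (-0.069 to 0.0021) and EIF4E2 (-0.0013 to 0.052), none of which was called. Where normalization, weights or a single array turned a value, the cause was not tested, except that quantile normalization made another probe set of EIF5B the brightest. EIF4G1 was called in every one of these runs. Precision is limited by the number of arrays.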
